A study of Oryctolagus cuniculus with 6 samples.

Results

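The vascular endothelial growth factor (VEGF) family was examined in rabbit retina with and without proliferative vitreoretinopathy (PVR). The 10 members were chosen by gene symbol, as the 5 ligands VEGFA, VEGFB, VEGFC, VEGFD and PGF, the 3 tyrosine kinase receptors FLT1, KDR and FLT4, and the 2 neuropilin co-receptors NRP1 and NRP2. All 10 were among the 28788 genes of the deposited tables. Polyadenylated RNA of retina was sequenced from 3 normal samples and 3 PVR samples. In the PVR model the sclera of adult rabbits was punctured, vitreous was drawn off and platelet-rich plasma was put into the vitreous cavity in its place. The normal samples carry no further description of their treatment. Neither strain, exact age nor the time from injection to collection is named in the sources used here, and it is not stated that the samples of one group are separate animals, so p-values measure the spread between these samples, which may be technical.

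VEGF ligands are secreted dimers that act mainly on endothelial cells. VEGFA binds the kinase receptors FLT1 and KDR, of which KDR carries most of the mitogenic signal and FLT1 binds the ligand tightly with weaker kinase output. VEGFB and placental growth factor (PGF) bind FLT1, whereas VEGFC and VEGFD are best known as ligands of FLT4 on lymphatic endothelium. Neuropilins hold VEGF and class 3 semaphorins for their signalling partners. In the eye, Mueller glia and pigment epithelium are known sources of VEGFA, whose transcription is raised in low oxygen. Most of the rabbit retina has no vessels of its own, apart from a band of vessels that lies with myelinated fibres.

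Between 31904593 and 43035080 reads were counted per sample. The retinal label was checked with GNAT1, the transducin subunit of rods, which had between 64958 and 114626 counts. Normal replicate 2 stood apart through lens genes: the 9 lens markers summed to 32732 CPM in it. In the other samples this sum also differed by group, at 15.6 and 12.2 CPM in normal replicates 1 and 3 and between 262 and 300.2 CPM in PVR. The counts of members and pathway genes called, the members' fold changes and the ratios were therefore also computed without normal replicate 2. The edgeR test was also run with the lens markers removed from the counts, where VEGFA had a log2 fold change of -0.60 (adjusted p = 0.0366). That run leaves any other RNA from lens in place, and the part of such RNA in the results was not tested. CPM values are counts scaled to a common library size, by total counts and TMM factors, and are used to compare samples. FPKM values, which also divide by gene length, are used to compare genes. A gene was called when the quasi-likelihood test of edgeR gave a p under 0.05 after Benjamini-Hochberg adjustment over the 18697 genes that passed a filter on low counts, and all 10 members passed it.

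KDR and VEGFA were the most abundant transcripts of the family. Mean FPKM over the 6 samples was 69.3 for KDR and 62.6 for VEGFA, at positions 682 and 779 among all genes of the table. FLT1 followed with 29.5 and VEGFB with 24.4. VEGFC had a mean FPKM of 6.91 and NRP2 of 4.31. PGF at 1.48, NRP1 at 1.25, VEGFD at 0.405 and FLT4 at 0.0527 were the least abundant. The ranges over the 6 samples overlapped between KDR and VEGFA, between FLT1 and VEGFB, between VEGFC and NRP2, and between PGF and NRP1. The order within those pairs was therefore not settled by these means. VEGFC also overlapped PGF and NRP1, which are further down the order, so its place above them was not settled either. In normal replicate 3, VEGFC had 1.40 FPKM, below PGF with 1.63 and NRP1 with 1.94. For KDR and VEGFA the order differed by group. VEGFA had 78.8, 77.3 and 66.1 FPKM in normal, above KDR with 69.9, 65.9 and 54.7 in the same samples. In PVR, VEGFA had 52.0, 53.2 and 48.2 FPKM, below KDR with 76.5, 73.5 and 75.0. The other neighbours in the order had ranges that did not overlap. The level of VEGFD rests on an implied gene length of 19377 bases, the deposited FPKM values having been computed with it, against 1358 to 3143 bases for the other 4 ligands. Its FPKM is therefore low relative to its counts.

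**Figure D1:**
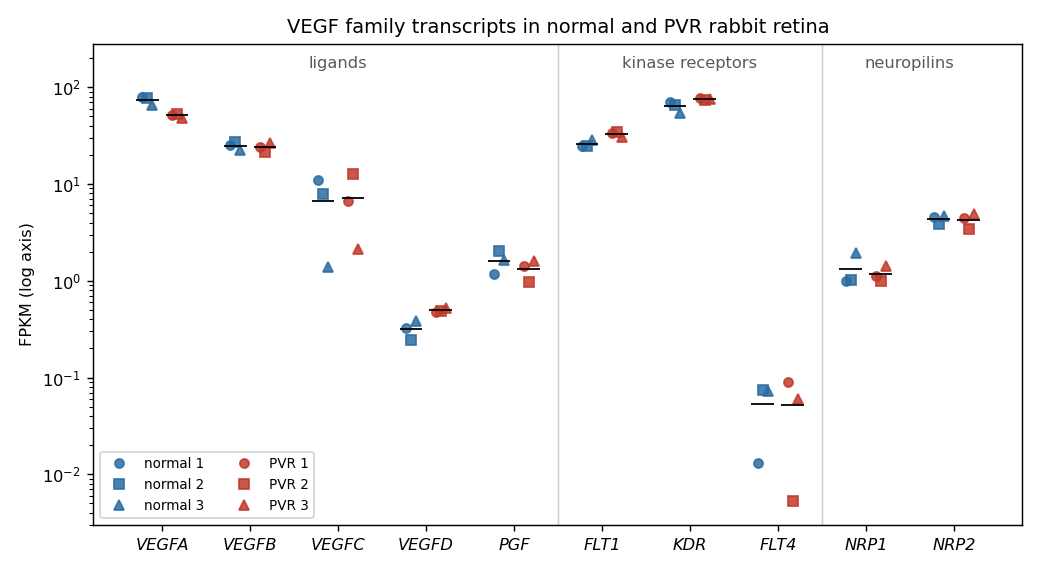
FPKM of the 10 VEGF family genes on a log axis, with blue symbols for the 3 normal samples, red symbols for the 3 PVR samples and a black line at each group's mean. KDR and VEGFA lie highest, FLT4 lies lowest, and VEGFC is spread by 8.97 times between its lowest and highest sample.

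Of the 10 members, 1 was called. VEGFA was lower in PVR, against 1.70% of all genes tested that were called in either direction, 0.615% called as lower and 1.09% called as higher. No member was beyond a log2 fold change of 1 with an adjusted p under 0.05, as 1.01% of all genes were, and the same number of members, 0, was found by DESeq2 and limma-voom. At an unadjusted p under 0.05 there were 3 members, against 21.2% of all genes. The groups did not overlap in CPM for 3 of the 10, against 28.0% of all genes, so this number is near the background. The median log2 fold change of the members was -0.09, and that of all genes tested was -0.01.

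VEGFA had 254, 255 and 208 CPM in normal replicates 1 to 3 and 159.5, 161 and 150.2 CPM in PVR replicates 1 to 3. The lowest normal sample thus stood above the highest PVR sample, and the PVR samples lay closer together than the normal ones. The mean was 239 ± 26.6 CPM (SD, n = 3) in normal and 157 ± 5.88 CPM (SD, n = 3) in PVR, and fell by 34.3%. This gave a log2 fold change of -0.61 with a standard error (SE) of 0.10 and an edgeR adjusted p of 0.0394. The fold was of similar size in every setting tried, between -0.69 and -0.52 on the log2 scale. The call was less firm. It held in 9 of 16 settings. It was lost in 2 that kept all samples, among them limma on the log2(FPKM + 1) scale (adjusted p = 0.0515). It was also lost when normal replicate 1 (adjusted p = 0.116), normal replicate 2 (0.12), PVR replicate 1 (0.225), PVR replicate 2 (0.0924) or PVR replicate 3 (0.0548) was left out of the edgeR test. Without normal replicate 3, the normal sample with the least VEGFA, the adjusted p was 0.0105. Counts per gene do not separate the splice forms of VEGFA. In bulk tissue, fewer cells of a type and less RNA per cell cannot be told apart.

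**Figure D2:**
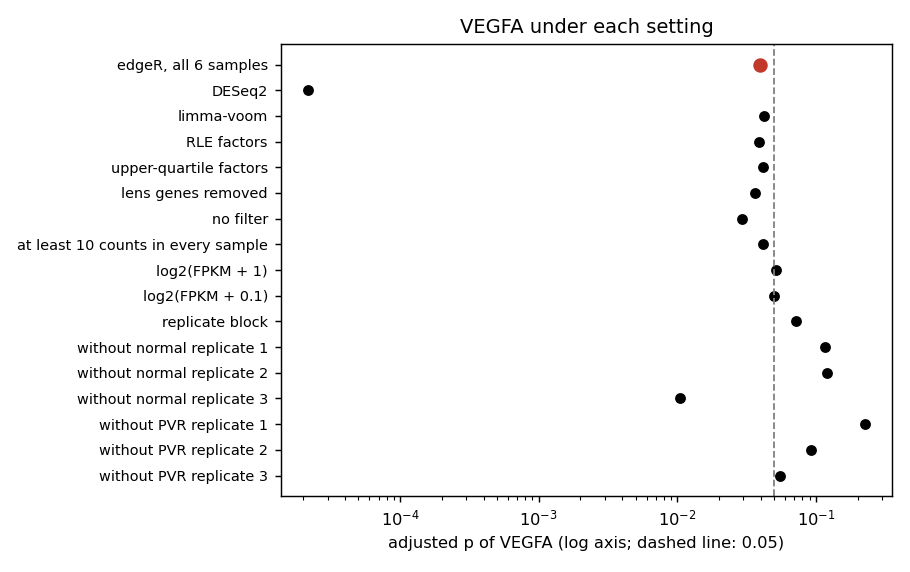
Adjusted p of VEGFA on a log axis for the edgeR test of all 6 samples (red) and for 16 other settings (black), with a dashed line at 0.05. The values run from 2.18e-05 with DESeq2 to 0.225 without PVR replicate 1, and 5 of the 6 tests that leave out a sample lie to the right of the line.

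Markers of the cells that are known to make VEGFA moved unevenly. GLUL, the glutamine synthetase of Mueller glia, had 819, 929 and 1102 CPM in normal and 464, 419 and 438 CPM in PVR (log2 fold change -1.11, SE 0.12, edgeR adjusted p = 0.0125). RLBP1, a retinoid carrier of Mueller glia and pigment epithelium, had a log2 fold change of -0.89 (SE 0.13, edgeR adjusted p = 0.0294). Of the 7 Mueller glia markers these 2 were called lower and none was called higher, against 0.615% and 1.09% of all genes. The sum of the 7 ranged from 2427 to 3148 CPM in normal and from 2296 to 2464 CPM in PVR. SLC1A3, a glial glutamate transporter, had a log2 fold change of 0.08 (adjusted p = 0.63). GFAP, an intermediate filament of reactive glia, had 58.7, 182 and 247 CPM in normal and 439, 452 and 391 CPM in PVR. Its groups did not overlap, and its log2 fold change, the largest of this list in size, was 1.39 (SE 0.44, unadjusted p = 0.0148, edgeR adjusted p = 0.143). The 8 pigment epithelium markers summed to between 472 and 677 CPM in normal and between 354 and 372 CPM in PVR, with LRAT and TTR called lower. DESeq2 called 3 of these markers and limma-voom 0, against 8.75% and 1.15% of all genes. BEST1, a chloride channel of pigment epithelium, had a log2 fold change of 0.53 without overlap (edgeR adjusted p = 0.215). The rod gene GNAT1 had 3011, 2680 and 2721 CPM in normal and 2415, 1933 and 2597 CPM in PVR, also without overlap (log2 fold change -0.28, edgeR adjusted p = 0.247). In FPKM the groups of GNAT1 did overlap. Over all genes, 13.4% did not overlap upward in CPM and 14.6% downward. The part of the marker genes' cells in the VEGFA result was not tested.

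VEGFD was the ligand with the largest positive fold. It had 6.44, 4.94 and 7.41 CPM in normal and 9.05, 9.08 and 9.95 CPM in PVR. The lowest PVR sample was above the highest normal one, and the normal samples were further apart. The mean was 6.26 ± 1.24 CPM (SD, n = 3) in normal and 9.36 ± 0.512 CPM (SD, n = 3) in PVR. Its log2 fold change was 0.58 (SE 0.19, unadjusted p = 0.019, edgeR adjusted p = 0.159), and it was called in none of 16 settings, DESeq2 included (adjusted p = 0.0823). On the log2(FPKM + 1) scale, which shrinks low genes, the value was 0.18. VEGFD overlaps the genes PIR and LOC138847718 where RefSeq annotates mOryCun1.1, an assembly other than that of the files. PIR had between 38 and 87 counts per sample and VEGFD between 192 and 432, and the strand setting of the counting is not given in the sources used here, so the split of reads between them is uncertain.

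VEGFB, the other abundant ligand, had 34.9, 38.3 and 30.8 CPM in normal and 31.7, 28.0 and 35.4 CPM in PVR, and the groups overlapped. Its log2 fold change was -0.13 (SE 0.13, edgeR adjusted p = 0.585). VEGFB overlaps TRPT1 in the same RefSeq annotation, which had between 65 and 140 counts against 940 to 1538 for VEGFB.

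Relative to their means, VEGFC and FLT4 varied more within each group than the other members. VEGFC had 23.6, 17.6 and 2.98 CPM in normal and 13.7, 25.7 and 4.45 CPM in PVR. The sample numbered 3 was by far the lowest in both groups, and the groups overlapped over nearly their whole range. The means were 14.7 ± 10.6 CPM (SD, n = 3) in normal and 14.6 ± 10.6 CPM (SD, n = 3) in PVR. The spread within groups far exceeded the difference between them, the log2 fold change being -0.02 with an SE of 0.78 (edgeR adjusted p = 0.993). Its sign turned in 9 of 16 settings, and the value ran from -0.70 without PVR replicate 2 to 0.51 without normal replicate 1. These counts were not low, lying between 119 and 900 per sample.

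PGF, which binds FLT1, was weakly expressed, its counts being 75, 138 and 108 in normal and 75, 52 and 115 in PVR. This corresponded to 1.97, 3.55 and 2.70 CPM in normal and 2.29, 1.55 and 2.65 CPM in PVR, and the groups overlapped. Its fold was -0.34 on the log2 scale (SE 0.33, edgeR adjusted p = 0.58).

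**Figure D3:**
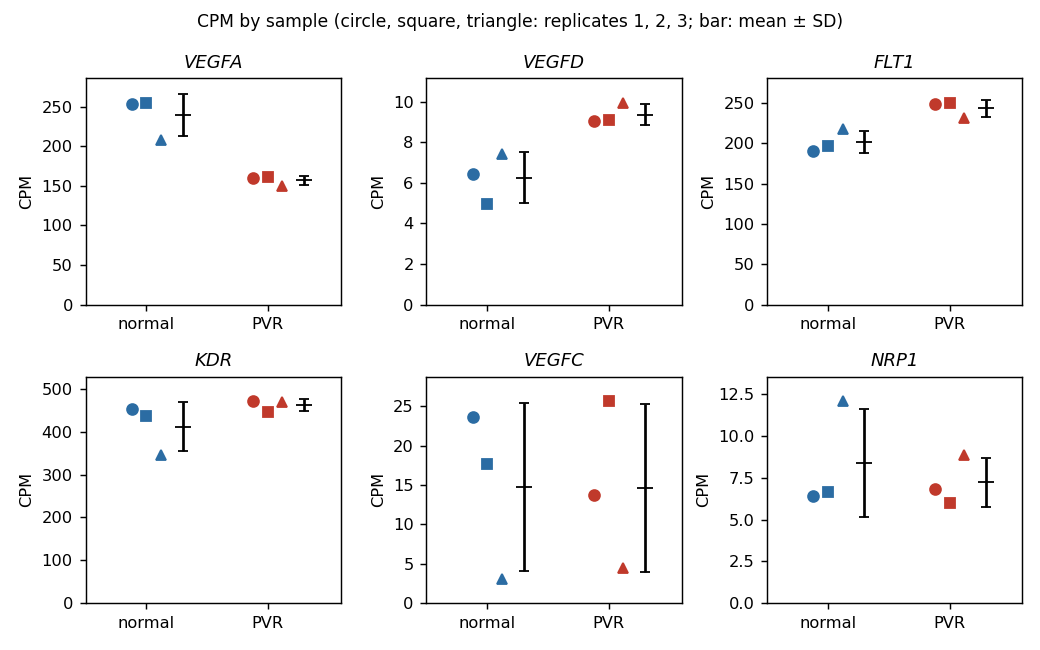
CPM by sample of 6 VEGF family genes, each on its own linear axis from 0, with circles, squares and triangles for replicates 1, 2 and 3 and bars for the mean ± SD of each group. VEGFA separates the groups downward and VEGFD and FLT1 upward, KDR has 1 low normal sample, and VEGFC is lowest and NRP1 highest in the sample numbered 3 of either group.

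Among the receptors, FLT1 was higher in each PVR sample than in each normal sample. It had 191, 196 and 218 CPM in normal and 249, 250.3 and 231 CPM in PVR. The means were 202 ± 14.1 CPM (SD, n = 3) and 243 ± 10.6 CPM (SD, n = 3), a difference of 20.7%. This was a log2 fold change of 0.27 (SE 0.09, unadjusted p = 0.0148, edgeR adjusted p = 0.143). It lay between 0.24 and 0.34 in the 16 other settings and was called in none of them. Counts per gene do not separate the membrane receptor from its soluble form, which binds ligand without signalling.

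KDR, the main signalling receptor of VEGFA, had 452, 438 and 347 CPM in normal and 472, 447 and 469.7 CPM in PVR. Normal replicate 3 was the low sample, and normal replicate 1 lay above PVR replicate 2, so the groups overlapped. The means were 412 ± 57.1 CPM (SD, n = 3) and 463 ± 13.6 CPM (SD, n = 3). The log2 fold change was 0.17 (SE 0.12, edgeR adjusted p = 0.435) and 0.06 without normal replicate 3. FLT4, the receptor for VEGFC and VEGFD on lymphatic vessels, was counted 3, 18 and 17 times in normal and 17, 1 and 15 times in PVR. At this depth a difference in FLT4 was not detectable, with a log2 fold change of -0.11 and a standard error of 0.95 (adjusted p = 0.959 from edgeR). Of other lymphatic markers, LYVE1 had 14, 30 and 52 counts in normal and 83, 44 and 142 in PVR. In CPM its groups did not overlap, narrowly, with 1.301 in normal replicate 3 against 1.310 in PVR replicate 2. Its log2 fold change was 1.54 (SE 0.54, unadjusted p = 0.0225, edgeR adjusted p = 0.168), and it was not called. CCL21 had 1 count over all samples. PDPN had 4.12, 4.96 and 2.33 CPM in normal and 2.05, 0.595 and 2.86 CPM in PVR (log2 fold change -1.05, adjusted p = 0.314 from edgeR), and PROX1, which other retinal cells also express, had a log2 fold change of 0.00 (adjusted p = 0.998).

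Levels of KDR and FLT1 stood far above those of endothelial markers in the same retinas. KDR had between 13864 and 20394 counts per sample and FLT1 between 7269 and 10032. CDH5 encodes the cadherin of endothelial junctions. Its counts were 24, 41 and 103 in normal and 0, 0 and 1 in PVR, a level at least 17-fold lower against a limit of 3 counts per library. VWF, an endothelial clotting factor, had 5.99, 15.9 and 23.8 CPM in normal and 0.428, 0.387 and 0.576 CPM in PVR (log2 fold change -5.02, adjusted p = 0.0119 from edgeR). Per length, mean FPKM was 0.873 for VWF, 1.47 for the tight junction gene CLDN5 and 0.165 for CDH5, against 69.3 for KDR. Of the 12 endothelial markers, 11 had a lower mean in PVR and 2, CDH5 and VWF, were called lower, against 0.615% of all genes. DESeq2 called 5 of the list and limma-voom 1, CDH5, against 8.75% and 1.15% of all genes. The list summed to between 19.0 and 50.3 CPM in normal, highest in normal replicate 3, and to between 8.19 and 9.31 CPM in PVR. The 6 oligodendrocyte markers moved with it, at 212, 517 and 1138 CPM in normal replicates 1 to 3 and between 120 and 146 CPM in PVR, and the part of these cells in the result was not tested. The median log2 fold change of the 12 was -1.86, also with CDH5 and ERG at their bounds, while those of KDR and FLT1 were positive. Among the normal samples, KDR was lowest and FLT1 highest in replicate 3, where the endothelial sum was highest. Which cells carried KDR and FLT1 was not tested.

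The neuropilins did not differ beyond their spread. NRP2 had 46.5, 40.2 and 46.2 CPM in normal and 43.6, 33.2 and 49.0 CPM in PVR (log2 fold change -0.08, SE 0.15, edgeR adjusted p = 0.786). PVR replicate 2 was the lowest and PVR replicate 3 the highest of all samples. NRP1 had 6.41, 6.64 and 12.1 CPM in normal and 6.82, 5.98 and 8.87 CPM in PVR. The sample numbered 3 was the highest in both groups, the opposite of VEGFC. Its log2 fold change was -0.21 (SE 0.29, edgeR adjusted p = 0.70) and turned to 0.15 without normal replicate 3. In RefSeq's annotation of mOryCun1.1, NRP1 overlaps LOC138845051 and LOC103352369, and NRP2 overlaps LOC127491712. The split of reads between these genes is uncertain too.

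**Figure D4:**
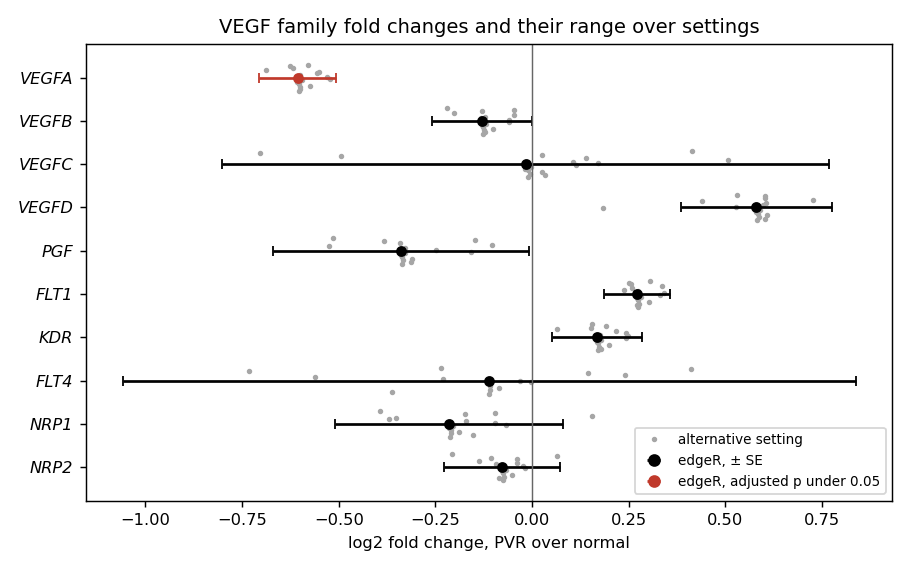
Log2 fold change of PVR over normal for the 10 VEGF family genes, with large points and bars for the edgeR value ± standard error, red for an adjusted p under 0.05, and small grey points for the alternative settings. VEGFA, VEGFD and FLT1 stay on one side of 0 under every setting, as do VEGFB, PGF and KDR, while VEGFC, FLT4, NRP1 and NRP2 cross it.

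Summed by role, the ligands reached an FPKM of 116, 114 and 92.2 in normal and 84.5, 88.6 and 78.8 in PVR. The kinase receptors summed to 94.6, 90.8 and 83.5 in normal and 110.4, 108 and 106 in PVR. The ligand sum was thus lower, and the receptor sum higher, in each PVR sample than in each normal one, with VEGFA and KDR as the largest parts of each sum. VEGFA made up between 67.6% and 71.7% of ligand FPKM in normal and between 60.1% and 61.6% in PVR. KDR made up between 65.5% and 73.9% of receptor FPKM in normal and between 68.1% and 70.8% in PVR. NRP2 was the main neuropilin, at between 70.4% and 81.9% of their FPKM over all samples. Since these sums contain the members already described, no test was made on them.

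Ratios within a sample do not depend on how libraries are scaled, and 3 were compared. VEGFA exceeded VEGFB by 3.14, 2.88 and 2.92 times per length in the normal samples and by 2.18, 2.49 and 1.83 times in PVR. The groups did not overlap, and the mean log2 ratio differed by -0.47 (two-sided exact permutation test, p = 0.1, adjusted p = 0.3 over the 3 ratios). No smaller p can be reached with 3 samples in each group. The ratio of FLT1 to KDR was between 0.353 and 0.525 in normal and between 0.412 and 0.468 in PVR (two-sided exact permutation test, p = 0.7, adjusted p = 0.9). The ratio of NRP1 to NRP2 was between 0.221 and 0.42 in normal and between 0.251 and 0.29 in PVR (two-sided exact permutation test, p = 0.9, adjusted p = 0.9).

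The wider pathway was described by 5 lists of 82 genes in all, of which 80 were matched and tested. Only 1 of the 80 was called, higher in PVR, close to the 1.70% of all genes called. That gene was ADAMTS1, a secreted protease known to bind VEGFA and to release fragments of thrombospondins. It had 147, 154 and 251 CPM in normal and 459, 437 and 463 CPM in PVR. All PVR samples lay well above the normal ones, of which replicate 3 was the nearest. ADAMTS1 rose by 1.30 on the log2 scale (SE 0.20, edgeR adjusted p = 0.0342), between 1.17 and 1.6 in 16 other settings, and called in 11 of them, with an adjusted p of up to 0.189. Over the 80 genes the median was -0.03, and 12 of the 80 did not overlap upward and 10 downward, against 13.4% and 14.6% of all genes.

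Of 15 genes listed as regulators of VEGF or of angiogenesis, not all of them inhibitors, ADAMTS1 was the gene called. SPARC, a matrix protein that can bind VEGFA and the most abundant of this list, had a log2 fold change of -0.44 (SE 0.21, edgeR adjusted p = 0.287). THBS1, thrombospondin 1, an inhibitor of endothelial growth, had 17.8, 18.9 and 23.2 CPM in normal and 38.2, 29.7 and 45.2 CPM in PVR. Its log2 fold change was 0.92 (SE 0.18, edgeR adjusted p = 0.058), it was also called by DESeq2, and it was picked out after its values were seen. The list had a median log2 fold change of 0.07.

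Of 10 genes of oxygen sensing, none was called by edgeR or limma-voom. In this list 1 gene, EPAS1, had an unadjusted p under 0.05, and DESeq2 called that 1. Over all genes, 21.2% had an unadjusted p under 0.05 and DESeq2 called 8.75%. HIF1A, the oxygen-labile factor that activates VEGFA transcription, had 636, 545 and 667 CPM in normal and 588, 564 and 652 CPM in PVR, with overlapping groups (log2 fold change -0.03, SE 0.11, edgeR adjusted p = 0.876). EPAS1, which encodes its relative HIF2A, had 442, 455 and 502 CPM in normal and 369.9, 369 and 381 CPM in PVR. The groups did not overlap, and the log2 fold change was -0.32 (SE 0.09, unadjusted p = 0.00689, edgeR adjusted p = 0.107). EGLN1, the main prolyl hydroxylase that marks these factors for breakdown, had a log2 fold change of -0.03 (adjusted p = 0.869). Their activity is set mainly at the protein level, which these counts do not measure.

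Among 40 matched genes of receptor signalling none was called by edgeR or limma-voom, 12 had an unadjusted p under 0.05, against 21.2% of all genes, and DESeq2 called 5, against 8.75% of the 20052 genes to which it gave an adjusted p. Their median log2 fold change was -0.07. Abundant members were the calcineurin subunit PPP3CA and the GTPase CDC42, with log2 fold changes of -0.04 and -0.07 (edgeR adjusted p = 0.823 and 0.703). The extremes of this list were seen first and named for that. NOS3, the endothelial nitric oxide synthase, had 1, 0 and 10 counts in normal and 32, 14 and 47 counts in PVR (adjusted p = 0.156). PTPRB, a phosphatase of endothelial cells that acts on KDR and TEK, had 139, 304 and 630 counts in normal and 72, 51 and 80 in PVR (adjusted p = 0.0735). The 2 endothelial genes thus had folds of opposite sign, and neither passed the edgeR test, while both were among the 5 of DESeq2.

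Of the 12 semaphorins and plexins that work with the neuropilins none was called by edgeR, DESeq2 or limma-voom, and 1 had an unadjusted p under 0.05. SEMA3F, SEMA3A and SEMA3E, the most abundant, had log2 fold changes of -0.10, -0.06 and 0.06. Of 6 genes of the angiopoietin and TIE system, which steadies vessels alongside VEGF, none was called by edgeR or limma-voom. Here 1 gene, ANGPT2, had an unadjusted p under 0.05, and DESeq2 called that 1. For both lists the share of all genes was 21.2% at an unadjusted p under 0.05 and 8.75% by DESeq2. ANGPT2, a ligand of the TEK receptor that can oppose its activation, had 20.0, 25.3 and 26.3 CPM in normal and 38.0, 48.2 and 29.9 CPM in PVR, with no overlap (log2 fold change 0.70, SE 0.19, edgeR adjusted p = 0.111). ANGPT1, its counterpart, and ANGPT4 had log2 fold changes of -0.28 and 0.03 (adjusted p = 0.637 and 0.986).

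**Figure D5:**
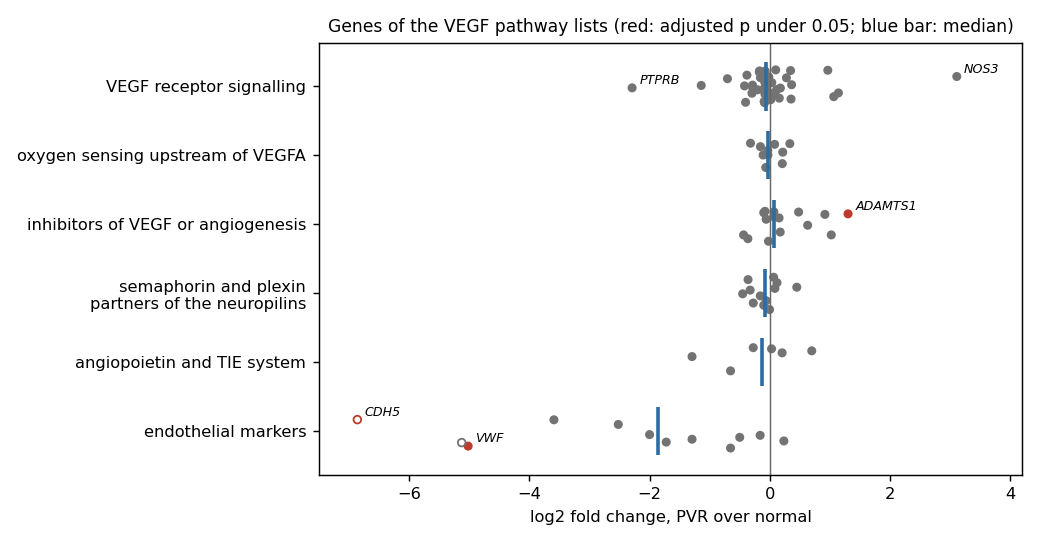
Log2 fold change of PVR over normal for the tested genes of 5 VEGF pathway lists and of the endothelial markers, with red for an adjusted p under 0.05, a blue bar at each median and open circles for genes with no more than 3 counts in any PVR sample, whose fitted fold is not a bound. The pathway medians lie between -0.12 and 0.07, and that of the endothelial markers at -1.86.

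Markers of other cells in the samples stood as follows. All 9 macrophage and microglia markers had a higher mean in PVR, none was called by edgeR (5 at an unadjusted p under 0.05, 3 called by DESeq2 and 0 by limma-voom, against 21.2%, 8.75% and 1.15% of all genes), and their sum ranged from 30.6 to 69.7 CPM in normal and from 78.2 to 114 CPM in PVR. The 4 matched platelet markers summed to between 2.85 and 3.88 CPM in normal and between 2.54 and 3.36 CPM in PVR. Most of this sum was ITGA2B, and the markers moved in opposite directions. ITGA2B had a log2 fold change of -0.53 (edgeR adjusted p = 0.30). PPBP and GP9, with at most 28 and 17 counts per sample, had 1.80 and 0.79 (edgeR adjusted p = 0.394 and 0.534). GP1BA, with at most 6 counts, was not tested. The 8 pericyte markers summed to between 26.5 and 69.9 CPM in normal and between 23.4 and 45.9 CPM in PVR, with RGS5 called lower. DESeq2 called RGS5 and ACTA2, and limma-voom called 0. ACTA2, an actin of contractile cells, had a log2 fold change of 1.65 (edgeR adjusted p = 0.166). Of the 6 oligodendrocyte markers MAG and MOBP were called lower, while DESeq2 called 5 and limma-voom 0. Over all genes, edgeR called 0.615% as lower, and DESeq2 and limma-voom called 8.75% and 1.15% in either direction. The part of these cells in the levels of VEGFD, FLT1, VEGFC and NRP1 was not tested.

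The genes whose log2 CPM followed the most abundant ligand, receptor and neuropilin most closely over the 6 samples were taken from 9516 genes with a symbol. For VEGFA these were CTSF (Pearson's r = 0.997), NSD2 (0.993) and ANKIB1 (0.991). None of these 3 was called in the edgeR test, with log2 fold changes from -0.27 to -0.23. For KDR they were CUBN (0.995), PREX2 (0.993) and GRSF1 (0.985), and for NRP2 they were B9D1, GTF2A1 and SEMA3F (0.993, 0.993 and 0.991). The points share the 6 libraries and their scaling. Taking the highest of 9516 values over 6 samples also favours a high r by itself. These values are given as a description.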

How the data were processed

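Retinal RNA of 3 normal and 3 PVR rabbit samples was compared, with groups and columns taken from the sample labels. The authors cleaned reads with fastp, aligned them to OryCun2.0 with HISAT2, counted reads in genes with htseq-count and deposited these raw counts. The authors also deposited FPKM values, which use the same reads and one length per gene. The annotation release is not given in the sources used here. Replicate numbers name samples and, in 1 alternative, enter as a block.

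Counts were filtered with edgeR's default filter, scaled with TMM and tested with edgeR 4.0.16 in R 4.3.3, with condition as the single term. The standard error is the log2 fold change divided by the square root of the F statistic. Alternatives used DESeq2 1.42.0, the tool of the study, and limma 3.58.1. Simulated counts were also run through edgeR with and without the block, DESeq2, limma-voom and limma on the log2(FPKM + 1) scale. Their outcome is not given here, and no result rests on it. Tables, exact permutation tests and figures used Python 3.11.15, pandas 2.3.3, SciPy 1.17.1 and matplotlib 3.10.9. Reads carried no molecular identifiers, so the limit of 3 counts covers counting error alone.

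Members, lists and tests were chosen with earlier results of these data known. Genes named are the members, genes of the 5 pathway lists that were called or among the 3 with the highest mean FPKM of their list, and marker genes, and others are marked as picked after their values were seen. List genes were matched by symbol or, through RefSeq's mOryCun1.1 table, by gene identifier. MAP2K2, SHC2, CRX and PF4 were not matched. Some genes that this rule or the marker lists would name, and the summed level of the rod and cone list, are not reported here.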

Additional observations from a re-analysis of the deposited data

How the results depend on the processing

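The number of members called was 1 in the edgeR test and in 8 of the 10 alternatives that kept all samples, and 0 on the log2(FPKM + 1) scale, where the adjusted p of VEGFA was 0.0515, and 0 with the replicate number as a block. With single samples left out it was between 0 and 1. The number of pathway genes called, 1 in the edgeR test, was 9 of 80 with DESeq2, which called 8.75% of all genes, 2 without a filter on low counts, 0 with the block, and between 0 and 3 with single samples left out. Among all genes, 318 were called, against 1755 with DESeq2, 92 with the block, 22 without PVR replicate 1 and 650 without PVR replicate 3. Other changes of more than 1.5 times were 76 without normal replicate 2, 98 without normal replicate 1, 113 without PVR replicate 2 and 557 without normal replicate 3. The cause was not tested.

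The difference in the log2 ratio of FLT1 to KDR was 0.10 and turned to -0.014 without normal replicate 1, and with single samples left out it ran from -0.014 to 0.27. That of NRP1 to NRP2 was -0.08 and turned to 0.19 without normal replicate 3, with a range from -0.27 to 0.19. That of VEGFA to VEGFB was -0.47 and ran from -0.58 to -0.35 with single samples left out. Its direction could not turn there, because the groups did not overlap. Raw counts and the block give the same difference by construction, so the 9 alternatives do not test the direction.

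Deviations of same-numbered samples correlated at -0.05, 0.04 and 0.01 over 10637 genes. With 3 samples in each group, such correlations cannot decide whether same-numbered samples were paired or shared a batch. With the block the log2 fold change of VEGFA was -0.60 (adjusted p = 0.0719 from edgeR), and the standard error of VEGFC was 0.31 in place of 0.78. The count of FLT4, with at most 18 per sample, limits what can be said of it, and FLT4 was not tested where at least 10 counts were required in every sample.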
